A study of Danio rerio with 18 samples.

Results

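The myogenic regulators described here were 5 genes of skeletal muscle formation, myf5, myod1, myog, mymk and cav3, taken by name out of the 25193 genes of a table of raw counts from zebrafish embryos. They stand for a tissue other than endothelium in a study of endothelial messages. Each name matched a single Ensembl gene: ENSDARG00000007277 (myf5), ENSDARG00000030110 (myod1), ENSDARG00000009438 (myog), ENSDARG00000103988 (mymk) and ENSDARG00000024141 (cav3). All 5 passed the low-count filter in every comparison. They were chosen by name, by a rule that uses no measured value, but with earlier results of these data known.

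The study sequenced RNA from pools of transgene-positive embryos collected at 24 hours post fertilization (hpf). Its 18 libraries formed 6 groups of 3. AngioTag and RiboTag (spelled Angiotag and Ribotag in the sample labels) are transgenic lines whose ribosomes are purified with an HA antibody, so that the messages being translated come down with them. The AngioTag IP group was immunoprecipitated RNA of AngioTag embryos, which the labels call the endothelial translatome, and AngioTag input was the starting RNA of that line. The RiboTag IP and RiboTag input groups were the same fractions of RiboTag embryos, in which ribosomes of the whole embryo are tagged. The remaining groups also came from AngioTag transgenic embryos. FACS sorted was RNA of GFP-positive endothelial cells taken by a fluorescence-activated sorter (FACS), while FACS total was the total RNA set beside it. The labels name no promoter; that kdrl, a gene of endothelium, drives the AngioTag transgene is knowledge of the study. The labels do not say whether the 3 libraries of a group came from different embryo pools. The p-values therefore reflect only library-to-library spread, which may be technical.

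Skeletal muscle of the embryo forms from the somites. Myf5 and MyoD, the products of myf5 and myod1, are basic helix-loop-helix transcription factors that commit somite cells to the muscle fate; myogenin, the product of myog, is a related factor that drives their differentiation. Myomaker, the product of mymk, is a membrane protein needed for myoblasts to fuse into fibres, and caveolin 3, the product of cav3, is the muscle form of the protein that shapes caveolae, small pits of the cell membrane. The factors act as dimers with E proteins, which Id proteins can sequester. In endothelial cells caveolae are built with another caveolin, the product of cav1.

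Levels are given as normalized CPM, counts relative to library size after TMM scaling over the 18 libraries, and they are compared only between groups for the same gene, because the counts are not corrected for gene length. The libraries held between 18.3 and 49.5 M (mega) counts each, from 18.3 to 42.1 M in the purified or sorted groups of the AngioTag line. The lowest count of a member in a library was 39, for myf5 in the first AngioTag IP library, and the members held 42 to 241 counts in the FACS sorted libraries. No member was at 0 anywhere. The endothelial marker kdrl stood at 401 to 703 CPM in the AngioTag IP, against 23.5 to 30.0 CPM in AngioTag input. It stood at 891 to 1348 CPM in FACS sorted, against 28.4 to 36.8 CPM in FACS total, so the labels of these fractions hold for that gene. In the RiboTag IP kdrl was at 14.0 to 24.7 CPM, against 18.9 to 24.6 in RiboTag input. The gene zgc:158463 took 15.27% of counts in the second FACS sorted library and 4.19% in the first AngioTag IP library.

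**Figure D1:**
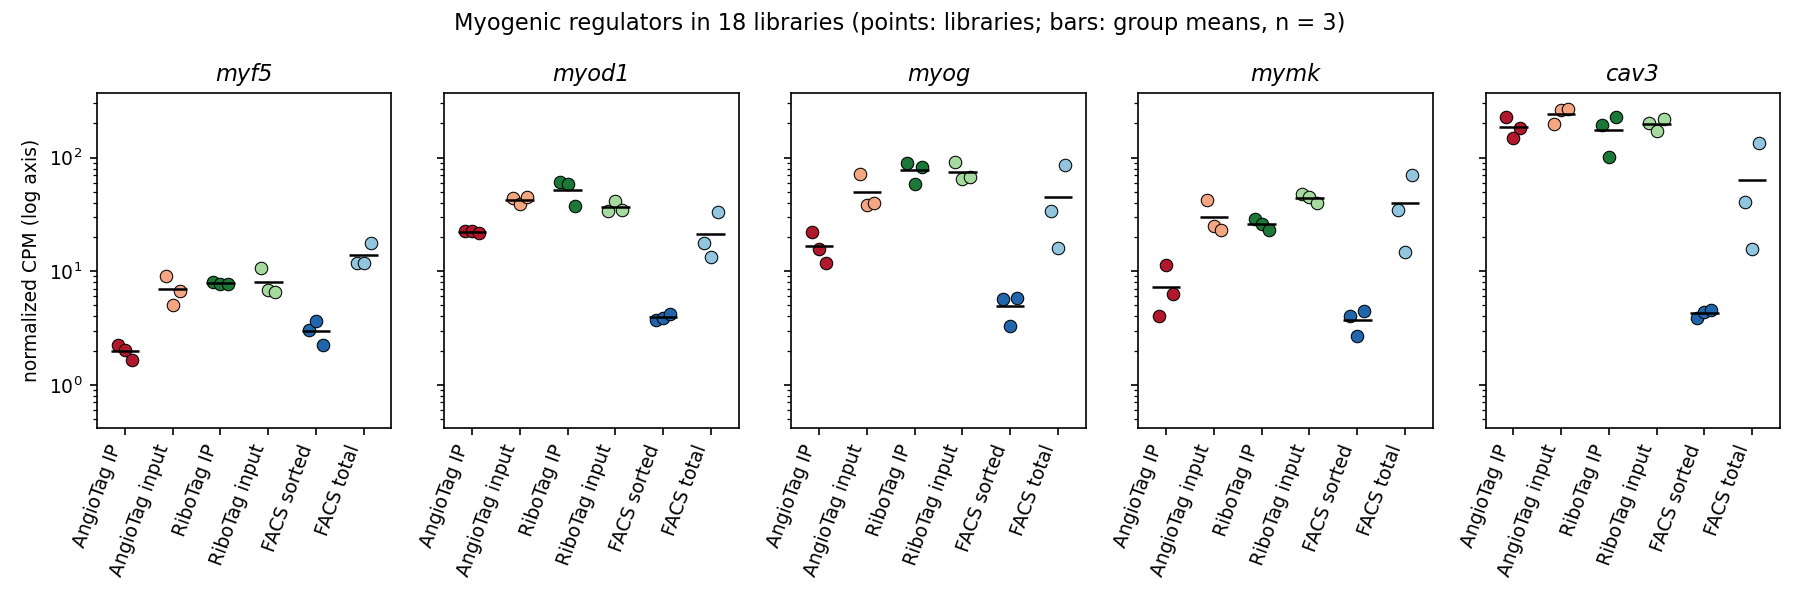
Levels of myf5, myod1, myog, mymk and cav3 in normalized CPM (log axis) in each of the 18 libraries of the 6 groups; points are libraries and bars are group means (n = 3). All 5 genes sit at 2.26 to 5.81 CPM in FACS sorted, and cav3 sits at 148 to 229 CPM in the AngioTag IP, beside 199 to 269 CPM in AngioTag input.

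The comparison of the AngioTag IP with AngioTag input asks how far the messages of a tissue other than endothelium were depleted by the purification. The determination factors, the differentiation factor and the fusion gene fell, and cav3 did not pass the test. The 4 members called lower were 4 of 5, where 11.9% of all tested genes were called lower (adjusted p under 0.05). The IP is a fraction of RNA and not a selection of cells, so these falls do not count muscle cells. How the muscle messages left in the IP came to be there was not tested. Markers of other tissues moved in the same libraries: 4 of 6 neural (median log2 fold change -0.89) and 3 of 6 epidermal markers (median -0.83) fell, while 5 of 9 myeloid and 2 of 5 erythroid markers rose. The name mfap4 matched 6 genes of the myeloid list, and copies of it were among the risers. Of all tested genes 12.1% were called higher. The summed neural level was 225 to 421 CPM in the AngioTag IP, against 525 to 571 CPM in AngioTag input, and the summed epidermal level was 7151 to 15323 CPM in the AngioTag IP, against 14088 to 18573 CPM in AngioTag input. The mean share of mitochondrially encoded genes was 0.272% in the AngioTag IP, against 4.18% in AngioTag input. In the RiboTag IP that mean share was 0.139%, against 4.20% in RiboTag input. The 4 calls of members held with mitochondrially encoded genes and zgc:158463 left out. The part of the shifts of other tissues in the members' values was not tested.

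The early determination gene myf5 had 2.24, 2.04 and 1.64 CPM in the 3 AngioTag IP libraries, against 8.99, 5.06 and 6.75 CPM in the 3 AngioTag input libraries. Its log2 fold change was -1.83 ± 0.30 (SE; edgeR quasi-likelihood test, adjusted p = 0.00311), which left 28.0% of the input level. Every IP library was below every input library. For myod1 the levels were 22.4, 22.4 and 21.5 CPM in the AngioTag IP, against 44.2, 39.0 and 44.9 CPM in AngioTag input. The log2 fold change was -0.97 ± 0.15 (edgeR, adjusted p = 0.00271), or 51.2% of the input level. The 3 IP values lay within 1 CPM of each other, and the groups did not overlap.

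Myogenin's gene myog had 22.3, 15.8 and 11.7 CPM in the AngioTag IP, against 72.3, 38.2 and 39.5 CPM in AngioTag input. It fell by 1.61 ± 0.31 on the log2 scale (edgeR, adjusted p = 0.00693), to 32.7% of the input level. The first library was the highest in each group, and the highest IP value was still below the lowest input value. The fusion gene mymk had 4.02, 11.3 and 6.33 CPM in the AngioTag IP, against 41.9, 24.9 and 22.9 CPM in AngioTag input, a log2 fold change of -2.05 ± 0.38 (edgeR, adjusted p = 0.00542) that left 24.1% of the input level. Its groups did not overlap either, although the second IP library was well above the other two. The 4 calls held in each alternative setting and with any 1 library left out. Over all tested genes, 23.6% had every IP library below every input library.

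The muscle caveolin gene cav3 had 229, 148 and 184 CPM in the AngioTag IP, against 199, 263 and 269 CPM in AngioTag input. The log2 fold change was -0.40 ± 0.21 (edgeR, adjusted p = 0.208), with a 95% interval of -0.88 to 0.09. The first IP library lay above the first input library, so the groups overlapped, and the interval excludes a depletion as large as that of the 4 other members' point estimates. The 95% interval of myod1, -1.31 to -0.62, overlaps that of cav3, so these values do not show cav3 to be less depleted than myod1. Without that first IP library, in which zgc:158463 took 4.19% of counts, the log2 fold change of cav3 was -0.56 (adjusted p = 0.0449).

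**Figure D2:**
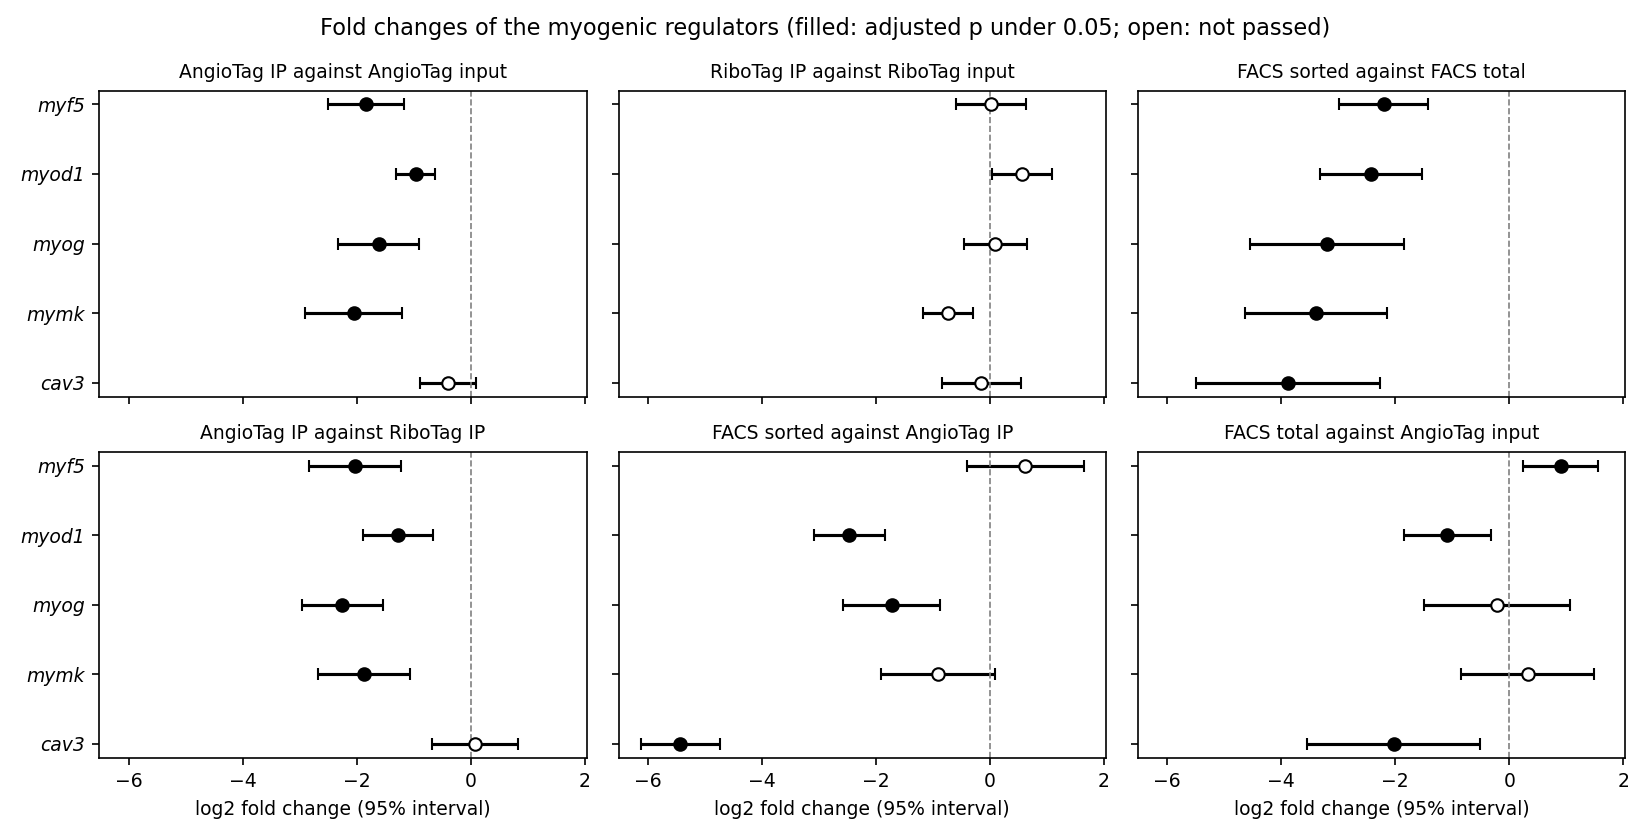
Log2 fold changes of the 5 myogenic regulators (points) with 95% intervals (bars) in 6 comparisons; filled points passed an adjusted p of 0.05 and open points did not. In AngioTag IP against AngioTag input the points run between -2.05 (mymk) and -0.40 (cav3), and in FACS sorted against FACS total between -3.88 (cav3) and -2.21 (myf5).

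Ratios between 2 members within a library, taken after adding 0.5 normalized CPM to each, depend little on the library's scaling. Cav3 stood higher relative to 3 of the others in the AngioTag IP than in its input. The log2 ratio of cav3 to mymk was 5.67, 3.66 and 4.75 in the AngioTag IP, against 2.23, 3.38 and 3.52 in AngioTag input, a difference of 1.65. The differences for cav3 to myf5 (1.17) and cav3 to myog (1.16) also came from groups that did not overlap, and so did myod1 to myf5 (0.63). Both ratios to myf5 depended on that pseudocount. With 2 CPM added instead, cav3 to myf5 was 5.77, 5.22 and 5.67 in the AngioTag IP, against 4.19, 5.23 and 4.95 in AngioTag input, and myod1 to myf5 was 2.53, 2.59 and 2.69 in the AngioTag IP, against 2.07, 2.54 and 2.42 in AngioTag input, so that the groups overlapped. The ratios of cav3 to myog and to mymk still did not overlap. With 3 libraries against 3, the exact two-sided permutation test cannot go below p = 0.1, the value each of these 4 ratios reached (adjusted p = 0.25 over the 10 ratios), so none can pass the threshold. The other 6 ratios overlapped. Ratios that share a member are not independent of each other.

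**Figure D3:**
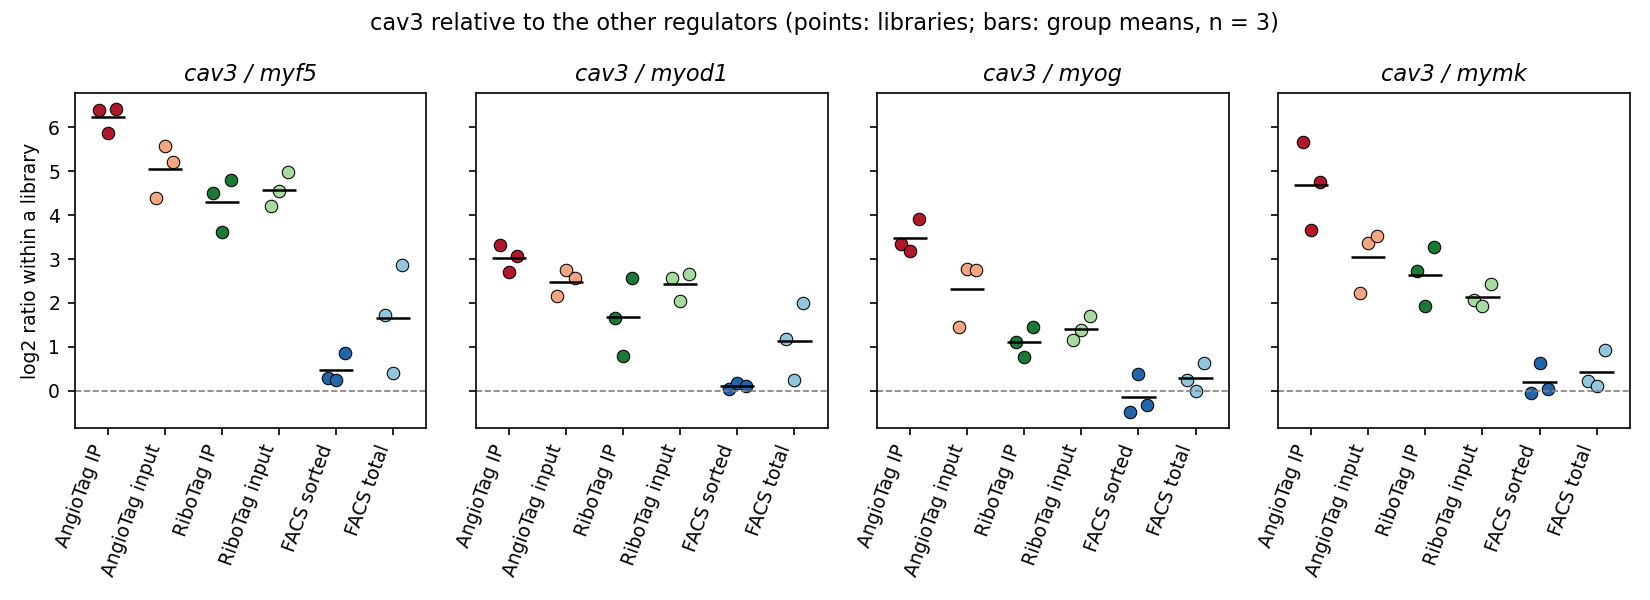
Log2 ratio of cav3 to myf5, myod1, myog and mymk within each library, by group; points are libraries, bars are group means (n = 3), and the ratios are not corrected for gene length. The ratio to mymk averages 4.69 in the AngioTag IP, against 3.04 in AngioTag input, and 0.20 in FACS sorted, against 0.42 in FACS total.

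The RiboTag comparison asks how ribosome-bound RNA differed from total RNA when ribosomes of the whole embryo are tagged. No member passed the edgeR test between the RiboTag IP and RiboTag input, where 1.2% of all tested genes were called in either direction. At an unadjusted p under 0.05 the count was 2 members (myod1 and mymk) and 3362 of 18134 genes. Myf5 had 8.07, 7.73 and 7.65 CPM in the RiboTag IP and 10.6, 6.87 and 6.49 CPM in RiboTag input (log2 fold change 0.01 ± 0.27, 95% interval -0.60 to 0.63). Myod1 had 60.5, 58.1 and 37.6 CPM in the RiboTag IP and 33.6, 41.4 and 34.5 CPM in RiboTag input (0.56 ± 0.23, edgeR adjusted p = 0.244). The third IP library lay inside the range of the inputs and the other two above it.

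Myog had 89.4, 59.1 and 82.6 CPM in the RiboTag IP, against 90.9, 65.1 and 67.5 CPM in RiboTag input (0.09 ± 0.24). Cav3 had 193, 101 and 226 CPM in the RiboTag IP, against 203, 172 and 219 CPM in RiboTag input (-0.15 ± 0.31). Both pairs of groups overlapped, and the second IP library was the lowest for each. Mymk alone separated the groups, with 28.5, 26.0 and 23.0 CPM in the RiboTag IP and 48.1, 44.7 and 40.2 CPM in RiboTag input; 14.7% of all tested genes had every IP library below every input library. Its log2 fold change was -0.73 ± 0.19 (edgeR, adjusted p = 0.101, unadjusted p = 0.00454), or 60.1% of the input level. The call depended on the method: DESeq2 gave mymk an adjusted p of 0.0121 and the edgeR fit with the replicate number as a block one of 0.0158, fits under which 3.62% (DESeq2) and 6.99% (block) of all genes were called lower. The ratios of mymk to myf5, myod1 and myog were each lower in the RiboTag IP without overlap, by 0.77, 1.25 and 0.81 on the log2 scale. The exact permutation test gave p = 0.1, the smallest possible, for each (adjusted p = 0.333 over 10 ratios). These ratios share mymk, so they restate its own separation and are not independent of it. The share of other gene pairs without overlap was not measured.

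The difference between the AngioTag and RiboTag enrichments was tested as an interaction contrast over the 12 libraries. It was negative and passed the test for myf5 (-1.86 ± 0.40, edgeR adjusted p = 0.0105), myod1 (-1.55 ± 0.28, adjusted p = 0.00347) and myog (-1.72 ± 0.41, adjusted p = 0.0195). These were 3 of 5 members, where 3.53% of all tested genes were called lower. Mymk (-1.33 ± 0.44, adjusted p = 0.0845) and cav3 (-0.27 ± 0.39, adjusted p = 0.743) did not pass. Mymk passed with the replicate block (-1.36, adjusted p = 0.0338; 7.79% of genes were called lower in that fit), with DESeq2 (-1.30, adjusted p = 0.0419; 6.02% of genes) and without the second AngioTag IP library (-1.81, adjusted p = 0.0109). The call of myog was lost with all 18 libraries in 1 fit (adjusted p = 0.139), and without the third AngioTag IP (0.0765), the first AngioTag input (0.0651), the second RiboTag input (0.0625) or the third RiboTag input library (0.0571).

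Setting the 2 purified fractions side by side gave the same 4 members as lower. Relative to the RiboTag IP, the AngioTag IP held 24.5% of the level of myf5 (log2 fold change -2.03 ± 0.37, edgeR adjusted p = 0.00366), 41.3% of myod1 (-1.28 ± 0.28, adjusted p = 0.00985), 21.0% of myog (-2.25 ± 0.33, adjusted p = 0.000873) and 27.3% of mymk (-1.87 ± 0.37, adjusted p = 0.00581). In all 4 the libraries did not overlap, which held for 18.9% of all genes in that direction, and 8.76% of all genes were called lower. Cav3 was at 148 to 229 CPM in the AngioTag IP, against 101 to 226 CPM in the RiboTag IP, and its log2 fold change was 0.08 ± 0.35, with a 95% interval of -0.68 to 0.83 (adjusted p = 0.899). The call of myod1 was lost without the third AngioTag IP library (adjusted p = 0.071) or the first RiboTag IP library (adjusted p = 0.0528). This comparison shares the AngioTag IP libraries with the one against AngioTag input.

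Sorted endothelial cells were set against FACS total, RNA of pooled embryos without enrichment. All 5 members were lower, where 14.8% of all tested genes were called lower and 25% had every sorted library below every total library. Fewer cells of a type and less RNA per cell cannot be told apart in such bulk samples. Myf5 had 3.05, 3.64 and 2.26 CPM in FACS sorted, against 11.9, 11.9 and 17.8 CPM in FACS total. Its log2 fold change was -2.21 ± 0.35 (edgeR, adjusted p = 0.00238), or 21.7% of the FACS total level. Myod1 had 3.75, 3.84 and 4.19 CPM in FACS sorted, against 17.7, 13.3 and 33.0 CPM in FACS total, a log2 fold change of -2.43 ± 0.39 (edgeR, adjusted p = 0.00267). The sorted values of myod1 lay within 1 CPM of each other, and the third FACS total library was the highest of its group for both genes. Neither gene overlapped between the groups.

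Myog had 5.65, 3.26 and 5.81 CPM in FACS sorted, against 34.2, 15.9 and 86.1 CPM in FACS total, a log2 fold change of -3.20 ± 0.60 (edgeR, adjusted p = 0.00485). For mymk the levels were 4.05, 2.69 and 4.44 CPM in FACS sorted, against 34.6, 14.7 and 69.7 CPM in FACS total, a log2 fold change of -3.39 ± 0.55 (adjusted p = 0.00269). Cav3 had 3.87, 4.41 and 4.54 CPM in FACS sorted, against 40.6, 15.8 and 133 CPM in FACS total, a log2 fold change of -3.88 ± 0.71 (adjusted p = 0.00464) that left 6.80% of the FACS total level. In FACS total the third library was highest and the second lowest for each of these 3 genes, and the lowest total value stood above the highest sorted value. A lower log2 fold change than that of cav3 was found in 0.342% of tested genes.

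The spread within FACS total was shared by other muscle genes. The summed level of the 28 sarcomere genes was 1031 to 1158 CPM in FACS sorted, against 6626, 3846 and 14426 CPM in libraries 1, 2 and 3 of FACS total; no sarcomere gene summed to 0 over a group. The spread was not one of muscle alone. Erythroid markers summed to 2983, 1650 and 4564 CPM in the same 3 libraries, in the order of the muscle genes, and epidermal markers to 4945, 5272 and 10606 CPM, also highest in the third. Neural markers ran the other way, at 562, 690 and 386 CPM. The part of this spread in the fold changes was measured by leaving out the third FACS total library: cav3 was then at -2.66 (adjusted p = 0.00392), mymk at -2.66 (adjusted p = 0.00405) and myog at -2.29 (adjusted p = 0.00635). All 5 calls held in every alternative and with any 1 library left out.

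The 2 endothelial preparations differed from each other in these genes. FACS sorted held 2.32% of the cav3 level of the AngioTag IP (log2 fold change -5.43 ± 0.31, edgeR adjusted p = 1.23e-05), 18.1% of the myod1 level (-2.46 ± 0.28, adjusted p = 0.000144) and 30.2% of the myog level (-1.73 ± 0.38, adjusted p = 0.00445). These were 3 of 5 members called lower, where 23.8% of all tested genes were. Mymk overlapped between the preparations (-0.91 ± 0.45, adjusted p = 0.112), and without the first AngioTag IP library it passed (-1.20, adjusted p = 0.0404). Myf5 was at 2.26 to 3.64 CPM in FACS sorted, against 1.64 to 2.24 CPM in the AngioTag IP, without overlap, as 31.7% of all genes were in that direction, but its log2 fold change of 0.62 ± 0.46 did not pass (adjusted p = 0.279). The preparations also differ in the kind of RNA and in the handling of the cells, which cannot be told apart here.

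Each preparation was therefore also set against its own starting RNA. The AngioTag enrichment minus the FACS enrichment, an interaction contrast over 12 libraries, was 3.50 ± 0.76 for cav3 (edgeR, adjusted p = 0.0165) and 1.48 ± 0.41 for myod1 (adjusted p = 0.0427), so 2 of 5 members stood less far below their starting RNA in the AngioTag IP than in FACS sorted, where 3% of all tested genes were called in that direction. Myf5 (0.39 ± 0.45), mymk (1.33 ± 0.69) and myog (1.60 ± 0.70) did not pass. The call of myod1 depended on some settings and, more often, on single libraries. It was lost with median-of-ratios scaling (1.31, adjusted p = 0.0593), with mitochondrially encoded genes and zgc:158463 left out (1.35, adjusted p = 0.0621), and in 11 of the 12 fits without 1 library. For cav3 the call was lost without the first AngioTag input library (3.37, adjusted p = 0.0551), and without the third FACS total library the difference was 2.32 (adjusted p = 0.0138).

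The starting RNA of the lines was compared as well. Between AngioTag input and RiboTag input no member passed the edgeR test, where 1.66% of all genes did; at an unadjusted p under 0.05 there were 2 members (myog and mymk) and 4358 of 18458 genes. All 5 overlapped. The log2 fold changes were -0.18 for myf5, 0.25 for myod1, -0.56 for myog, -0.54 for mymk and 0.32 for cav3. Without the first AngioTag input library, the one with the highest myf5, myog and mymk of its group, myog (-0.91, adjusted p = 0.0393) and mymk (-0.86, adjusted p = 0.0235) passed.

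FACS total and AngioTag input are both labelled as RNA of pooled AngioTag embryos, without enrichment. Any difference in how these references were prepared goes with the comparison and cannot be told apart in it. Of 5 members, 3 differed between FACS total and AngioTag input, where 8923 of 19266 tested genes were called in either direction. Myf5 was higher in FACS total (0.90 ± 0.29, edgeR adjusted p = 0.0315), as 25.2% of all genes were, and myod1 (-1.09 ± 0.33, adjusted p = 0.0272) and cav3 (-2.02 ± 0.66, adjusted p = 0.0357) were lower, as 21.2% of all genes were. Myog (-0.22 ± 0.56) and mymk (0.32 ± 0.51) overlapped. The count of 3 was 0 without the second or the third AngioTag input library, 1 without the first AngioTag input or the first FACS total library, and 2 without the second FACS total library. Without the third FACS total library 4 passed, and cav3 was at -3.23 (edgeR adjusted p = 0.00013) and myog at -1.11 (adjusted p = 0.0254). The summed sarcomere level was 3846 to 14426 CPM in FACS total and 31635 to 43670 CPM in AngioTag input; the part of that difference in the members' values was not tested.

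Ordered over the 6 groups, the members fell into different patterns. Myf5 was highest in FACS total (13.9 ± 3.43 CPM, SD, n = 3), above RiboTag input (7.97 ± 2.25) without overlap; RiboTag input, RiboTag IP (7.82 ± 0.22) and AngioTag input (6.93 ± 1.97) overlapped, and below them came FACS sorted (2.98 ± 0.69) and the AngioTag IP (1.97 ± 0.30). Myod1 was highest in the RiboTag IP (52.1 ± 12.6 CPM), which overlapped AngioTag input (42.7 ± 3.25), as did RiboTag input (36.5 ± 4.27). The AngioTag IP (22.1 ± 0.52) and FACS total (21.3 ± 10.3) overlapped in the middle, and FACS sorted (3.92 ± 0.23) was lowest. Myog ran through the RiboTag IP (77.0 ± 15.9 CPM), RiboTag input (74.5 ± 14.2), AngioTag input (50.0 ± 19.3) and FACS total (45.4 ± 36.4), each overlapping the next, then the AngioTag IP (16.6 ± 5.31) and, without overlap, FACS sorted (4.91 ± 1.43).

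Mymk was highest in RiboTag input (44.3 ± 3.97 CPM), followed by FACS total (39.7 ± 27.9), AngioTag input (29.9 ± 10.4) and the RiboTag IP (25.8 ± 2.79), each overlapping the next. A gap separated them from the AngioTag IP (7.22 ± 3.73), which overlapped FACS sorted (3.73 ± 0.92). Cav3 was highest in AngioTag input (243.7 ± 39.1 CPM), followed by RiboTag input (197.9 ± 23.9), the AngioTag IP (187.1 ± 40.6) and the RiboTag IP (173.4 ± 65.0). These 4 groups overlapped in turn, which does not show their levels to be equal. FACS total (63.1 ± 61.8) overlapped the RiboTag IP, and FACS sorted (4.27 ± 0.36) lay below all others.

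Across the 18 libraries, the Pearson correlation of log2(normalized CPM + 0.5) between members ran between 0.22 for myf5 with cav3 and 0.92 for myod1 with cav3. Myod1 with myog (0.91) and myog with mymk (0.91) were as close, and myf5 was nearest to mymk (0.82). These libraries share groups, so the values describe the 6 groups more than 18 independent samples. By the same measure, over 12807 other genes with a symbol, the genes most like cav3 were aimp1 (0.992), casq2 (0.989), which encodes a calcium store protein of muscle, and fitm1 (0.988). The likest to myod1 were vgll2b (0.983), acte1 (0.982) and sfrp5 (0.977); vgll2b is a muscle cofactor gene. For myog they were tnnt2c (0.966), a troponin T gene, hsp90aa1.1 (0.964), a chaperone of muscle myosin folding, and rnf41l (0.964). For mymk they were rnf41l (0.966), ppp1r14c (0.951) and sgcg (0.944), which encodes a sarcoglycan of the muscle membrane.

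The genes likest to myf5 were cd248b (0.950), smoc2 (0.939) and sema3d (0.939). Like myf5, cd248b had its highest mean in FACS total (38.6 ± 14.4 CPM), and its lowest in the AngioTag IP (6.17 ± 1.07 CPM). The genes most like the mean of the 5 standardized members were gbgt1l4 (0.983), hmx4 (0.969), st14b (0.966), tnnt2c (0.966) and rnf41l (0.962).

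Genes of the muscle lists were counted beside 12.1% of all tested genes called higher and 11.9% called lower in the AngioTag IP. Which tissue lay behind the change of a listed gene, lower or higher, was not tested. Of genes that act before or around the determination factors, a minority of each list passed in the AngioTag IP, mostly downward. Among 12 premyogenic transcription factor genes tested, 3 fell and none rose (median log2 fold change -0.38, against -0.03 for all genes): pax3 (ENSDARG00000010192, -2.20 ± 0.36, edgeR adjusted p = 0.00319), six4b (-1.03 ± 0.19, adjusted p = 0.00505) and eya4 (-0.64 ± 0.16, adjusted p = 0.0193). Pax3 encodes a factor of muscle progenitors, and six4b and eya4 encode partners in a complex upstream of the determination genes. Of 10 presomitic genes, 3 fell, both copies of hes6 (-2.03 ± 0.21 and -0.69 ± 0.15) and ripply1 (-1.33 ± 0.25), and among signal genes ptch1 (-3.59 ± 0.47), which encodes a receptor of Hedgehog, fell. Ptch1 was at 0.43 ± 0.18 CPM in the AngioTag IP, against 5.42 ± 2.23 CPM in AngioTag input. Among 10 genes of E, Id and Twist proteins only tcf3b passed, upward (0.56 ± 0.18, adjusted p = 0.048), and that call was lost in at least 8 of the alternative settings and fits without 1 library.

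Differentiation factors moved both ways. Of 12 genes, 6 fell and 2 rose in the AngioTag IP (median -0.77). The fallers named by the rule were myf6, both copies of smyd1 (-1.36 ± 0.27 and -0.99 ± 0.23), which encode a methyltransferase of muscle fibre assembly, and vgll2b (-1.24 ± 0.23). Myf6, the fourth factor of the MyoD family, was near the floor, with 6 counts over the 3 AngioTag IP libraries and 122 over the 3 AngioTag input libraries (0.05 ± 0.05 CPM and 1.06 ± 0.24 CPM; adjusted p = 0.00496). The risers were mef2c (ENSDARG00000009418, 1.76 ± 0.18, adjusted p = 0.000274) and prdm1 (1.09 ± 0.16, adjusted p = 0.0018), genes with known roles outside muscle as well; mef2c also acts in endothelium. Of 5 fusion genes tested beside mymk, none fell and 2 rose, jam2a (2.21 ± 0.35, adjusted p = 0.00273) and jam3 (1.11 ± 0.20, adjusted p = 0.00496), which encode junctional adhesion molecules that endothelial cells make too.

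The genes of the finished fibre were mostly lower. Of 28 sarcomere genes, 16 fell and 4 rose in the AngioTag IP (median -1.14). Mybphb (-1.82 ± 0.18), acta1 (ENSDARG00000036371, -1.50 ± 0.17), tnnc2 (-1.37 ± 0.21) and ckma (-1.26 ± 0.19) fell, whereas the fast myosin genes myhz1.2 (1.27 ± 0.30, adjusted p = 0.0156) and myhz1.3 (1.07 ± 0.20, adjusted p = 0.00654) rose. Myosin and actin copies share near-identical sequence, so reads can be split between them and single copies are uncertain. The summed sarcomere level was 37536 to 39790 CPM in the AngioTag IP, against 31635 to 43670 CPM in AngioTag input, which overlapped. Of 13 genes of excitation and the neuromuscular junction, 11 fell and none rose (median -1.28), including the acetylcholine receptor genes chrna1 (-1.30 ± 0.17) and chrnd (-1.28 ± 0.17) and the calcium pump gene atp2a1 (-1.39 ± 0.19).

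Caveolin 3 sits in the muscle membrane with the dystrophin complex and with the coat of the caveola, which cavins complete. Of 10 genes of the dystrophin complex and membrane repair, 3 fell in the AngioTag IP, the sarcoglycan genes sgcb (-3.00 ± 0.40), sgcg (-2.82 ± 0.39) and sgca (-2.49 ± 0.26). Of 8 other caveolin and cavin genes, 4 fell and 1 rose. Cavin4a (-0.98 ± 0.28) and cavin4b (-0.95 ± 0.21), whose products are the cavins of muscle, fell, as did 1 copy each of cavin1 (-2.13 ± 0.57) and cavin2 (-0.70 ± 0.17), and cav1 rose (0.91 ± 0.20, adjusted p = 0.0111). Cav1 was at 341 ± 76.3 CPM in the AngioTag IP, against 180 ± 8.40 CPM in AngioTag input. With fewer libraries or another spread the counts of lists moved: without the third AngioTag IP library 11 sarcomere, 8 excitation, 3 differentiation and no caveolin or cavin genes were called lower, and with all 18 libraries in 1 fit the sarcomere and excitation counts were 9 and 5.

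**Figure D4:**
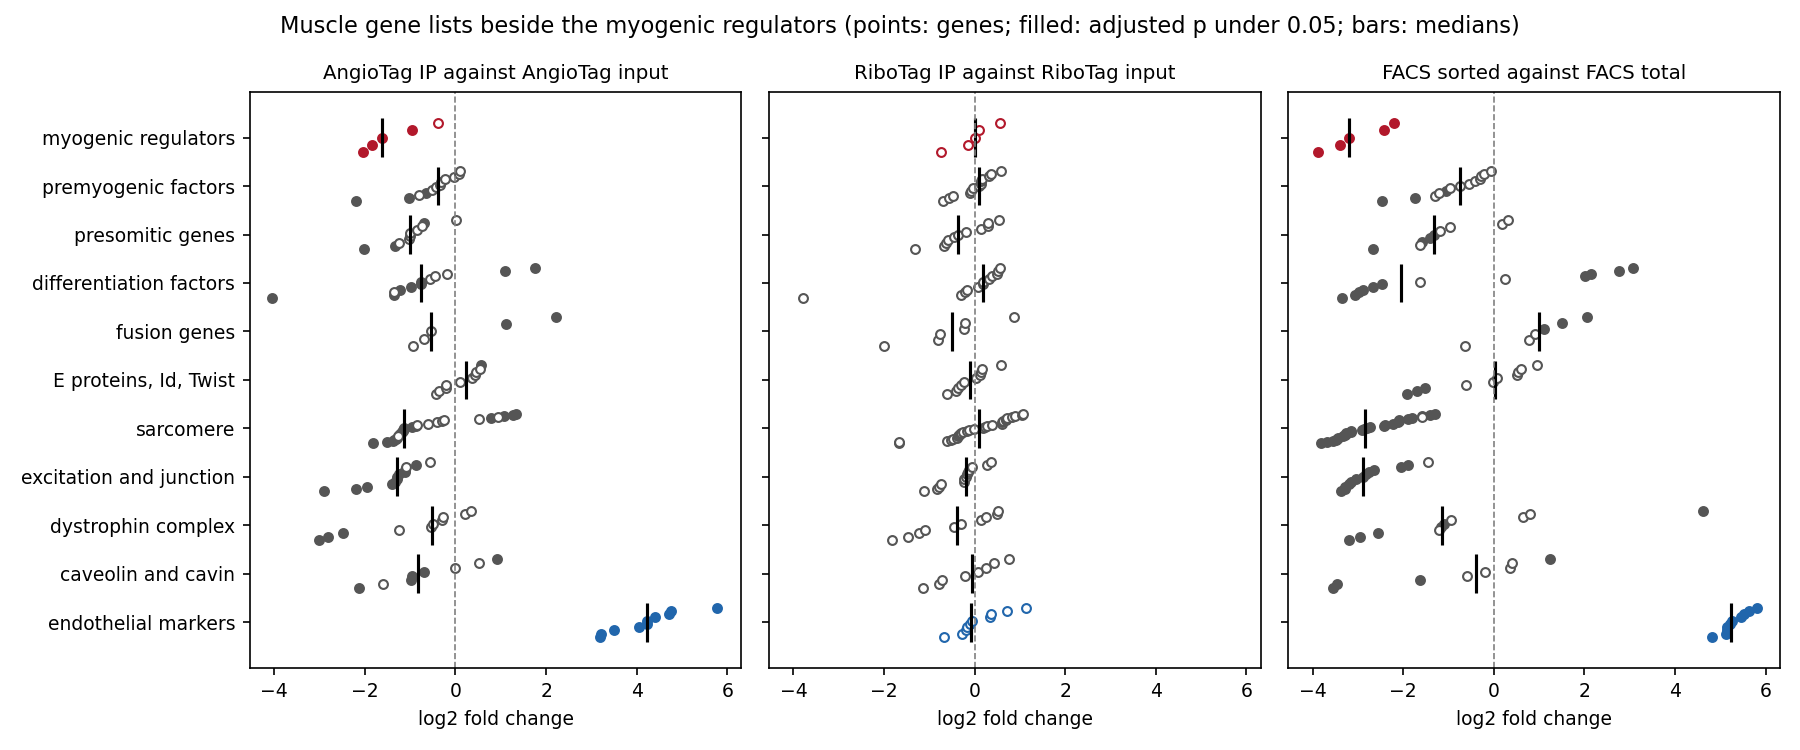
Log2 fold changes of single genes (points) of the 5 myogenic regulators, 9 muscle lists and the endothelial markers in the 3 enrichments, with medians (bars); filled points passed an adjusted p of 0.05. The medians of the sarcomere genes are -1.14 in AngioTag, 0.09 in RiboTag and -2.83 in FACS, and those of the endothelial markers 4.23, -0.08 and 5.23.

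In the RiboTag IP no gene of any of these lists passed the edgeR test, with 1.2% of all genes called. The medians were 0.09 for the sarcomere, -0.19 for excitation, 0.18 for differentiation factors and -0.07 for caveolins and cavins, against -0.05 for all genes. Over the 10 muscle lists, 117 genes in all, 15 were higher and 13 lower at an unadjusted p under 0.05. Over all genes, 3362 of 18134 were under it in either direction. DESeq2 called 5 of the 117 higher and 8 lower, and 919 higher and 656 lower of all 18134 genes. With other settings up to 3 sarcomere genes were called higher and up to 3 lower. The endothelial markers, 10 of 10 higher in the AngioTag IP and 10 of 10 in FACS sorted, gave 0 of 10 in the RiboTag IP by edgeR. At an unadjusted p under 0.05, 2 of these 10 were higher and 0 lower in the RiboTag IP. DESeq2 called 1 of them higher and 0 lower.

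In FACS sorted nearly all genes of the fibre were lower. Of 28 sarcomere genes 27 fell (median -2.83, against -0.11 for all genes; 14.8% of all tested genes were called lower), including myhz1.2 (-3.54 ± 0.47) and actc1b (-2.91 ± 0.42), and 12 of 13 excitation genes fell (median -2.88), including chrng (-3.20 ± 0.58) and ryr3 (-2.75 ± 0.36). Of 8 caveolin and cavin genes 3 fell, cavin4a (-3.54 ± 0.52), cavin4b (-3.46 ± 0.49) and 1 copy of cavin2 (-1.63 ± 0.51), and cav1 rose (1.25 ± 0.29, adjusted p = 0.0122). Differentiation factors again split, with 6 lower, among them both copies of smyd1, and 4 higher, among them mef2c (3.06 ± 0.33) and prdm1 (2.76 ± 0.41), where 13.9% of all tested genes were called higher. Of 6 fusion genes 3 rose and none fell: kirrel3l (2.07 ± 0.28), jam2a (1.51 ± 0.49) and mymx (1.11 ± 0.35, adjusted p = 0.0409). Mymx encodes myomixer, the partner of myomaker in fusion, and it was at 29.5 ± 9.74 CPM in FACS sorted, against 13.8 ± 4.61 CPM in FACS total. In the dystrophin list 5 genes fell and dysf, which encodes the membrane repair protein dysferlin, rose (4.63 ± 0.33, adjusted p = 5.98e-05). Without the first FACS sorted library the counts lower were 21 of the sarcomere, 9 of excitation and 3 of differentiation. In the AngioTag enrichment minus the FACS enrichment 16 of 28 sarcomere genes were higher and none lower (median 2.09), where 3% of all tested genes were called higher, and the count of 16 was between 4 and 19 in the alternatives.

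In FACS sorted 14.8% of all tested genes were called lower and 13.9% higher. Genes upstream of the determination factors fell where they passed the test, which was a minority of each list. Of 13 premyogenic genes 3 fell, pax3 (ENSDARG00000010192, -2.48 ± 0.41), eya4 (-1.73 ± 0.39) and meox1 (-1.06 ± 0.30), and of 9 presomitic genes 4 fell, both copies of hes6 (-2.67 ± 0.30 and -1.32 ± 0.33), her1 (-1.59 ± 0.44) and ripply1 (-1.41 ± 0.40). The Hedgehog ligand gene shh (-1.62 ± 0.42) and the Hedgehog effector gene gli1 (-1.16 ± 0.34) fell among 6 signal genes. Of 10 genes of E, Id and Twist proteins 3 fell, twist1b (-1.92 ± 0.40), twist1a (-1.69 ± 0.38) and id4 (-1.51 ± 0.47). Markers of other tissues moved in the same libraries: 6 of 6 neural and 4 of 6 epidermal markers fell, while 7 of 10 myeloid and 2 of 5 erythroid markers rose. Copies of mfap4, a name that matched 6 genes of the myeloid list, were among those risers. The part of these other tissues in the values of the members and of the listed genes was not tested.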

How the data were processed

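RNA-seq of 18 zebrafish libraries was read from a table of raw counts for 25193 genes, deposited by the authors with gene names. The values are whole numbers of different totals, so they were taken as counts as deposited. The submitters' processing notes name STAR 2.4.2a, RSEM 1.2.22, DESeq2 and the build GRCz10; the role of each, the annotation and the use of strand are not given in the sources used here. Counts that RSEM estimates and rounds would look the same.

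Each comparison was fitted on its own groups with edgeR 4.0.16 (limma 3.58.1, R 4.3.3; figures with matplotlib 3.10.9): filterByExpr (minimum count 10, minimum total 15), TMM scaling and the quasi-likelihood F test, adjusted by the Benjamini-Hochberg method over all genes tested, with a threshold of 0.05. Standard errors are the log2 fold change over the square root of F. The fit was tested on simulated counts for the AngioTag IP against AngioTag input, which does not test the other comparisons. The 18.3 to 49.5 M counts per library set the precision. Ratios used a pseudocount of 0.5 CPM, and no replicate pair differed by less than sampling noise.

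Alternatives were DESeq2 1.42.0, scaling by median of ratios or by upper quartile, all genes kept, a filter of 1 CPM in 3 libraries, all 18 libraries in 1 fit, mitochondrially encoded genes and zgc:158463 left out, the replicate number as a block, and each library left out. Whether the numbers pair samples was judged from the correlation of deviations from group means. Same-numbered libraries correlated at 0.22 to 0.44 between the AngioTag fractions, 0.29 to 0.70 between the RiboTag fractions and 0.19 to 0.23 between the IPs. That is only a hint of pairing from the data, because the labels do not say what a number marks. Between the AngioTag fractions some differently numbered libraries correlated about as much, IP 2 with input 3 at 0.21 and IP 3 with input 2 at 0.23. The main fits carried no block, and pairing entered only the alternative with the replicate number as a block.

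The members and the gene lists were chosen with earlier results of these data known. Of 176 list names, 149 matched 156 genes, 36 of them by a stem without a copy letter, since some names in the table are shared by copies; that matching was decided without reference to values. The text names the members, for each list up to 4 genes of smallest adjusted p in the direction with more calls and up to 2 in the other, and the genes most correlated with each member. The result of 1 signal gene is not reported here.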

Additional observations from a re-analysis of the deposited data

Results flagged for a closer look

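Of the 10 differences between enrichments that were tested for the members, 5 passed the edgeR interaction test (adjusted p under 0.05). Over all genes, 1522 of 19046 passed in the AngioTag minus RiboTag contrast and 1636 of 20153 in the AngioTag minus FACS contrast. Relative to their own starting RNA, myf5 (-1.86 ± 0.40, SE, adjusted p = 0.0105), myod1 (-1.55 ± 0.28, adjusted p = 0.00347) and myog (-1.72 ± 0.41, adjusted p = 0.0195) stood lower in the AngioTag IP than in the RiboTag IP, on the log2 scale. Relative to their own starting RNA, cav3 (3.50 ± 0.76, adjusted p = 0.0165) and myod1 (1.48 ± 0.41, adjusted p = 0.0427) stood higher in the AngioTag IP than in FACS sorted. Both sets of contrasts use the same AngioTag libraries, so they are not independent. As given above, the call of myod1 against FACS sorted was lost in most fits without 1 library. The calls of myog against the RiboTag IP and of cav3 against FACS sorted were lost in some such fits.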

How the results depend on the processing

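Calls of the members in the AngioTag IP against its input, in FACS sorted against FACS total and in FACS sorted against the AngioTag IP had the same direction and side of the threshold in each alternative setting. Against RiboTag input the RiboTag IP had 1 member past the threshold with DESeq2 and 1 with the replicate block, mymk in each, against 0 otherwise. The AngioTag minus FACS enrichment had 1 member with median-of-ratios scaling and 1 with mitochondrially encoded genes and zgc:158463 left out, against 2. With any 1 library left out, that count was 0 to 2, the count of FACS total against AngioTag input 0 to 4, and that between the inputs 0 to 2.

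Sign changes came from members that did not pass. In the RiboTag IP myf5 was at -0.077 with upper-quartile scaling, -0.019 with the 1 CPM filter and -0.028 with all 18 libraries in 1 fit, and myog at -0.0011 with upper-quartile scaling. With 1 library left out myf5 ran between -0.11 and 0.27, myog between -0.052 and 0.26 and cav3 between -0.39 and 0.13. Between the IPs cav3 was at -0.064 with upper-quartile scaling and ran between -0.20 and 0.33 with 1 library left out. Between the inputs myf5 ran between -0.40 and 0.086, and between FACS total and AngioTag input myog ran between -1.11 and 0.20 and mymk between -0.39 and 0.73. The cause was not tested.

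The replicate block changed a member's call only for mymk (RiboTag IP -0.74, adjusted p = 0.0158; AngioTag minus RiboTag -1.36, adjusted p = 0.0338). Same-numbered correlations were 0.0001 to 0.39 for FACS and -0.09 to -0.01 for FACS sorted with the AngioTag IP. They were -0.41 to 0.20 for the inputs and -0.20 to 0.02 for FACS total with AngioTag input. So few pairs cannot settle whether the numbers pair samples. In FACS, sorted libraries 1 (0.39) and 3 (0.17) correlated most with the same-numbered total library, and sorted library 2 did not.

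Counts over all genes, and with them the shares of all genes given beside the members, moved more. With 1 library left out they ran between 5 (without RiboTag IP 1) and 1878 (without RiboTag IP 2) for the RiboTag IP, otherwise 217, and between 15 (without RiboTag input 1) and 702 (without AngioTag input 1) for the inputs, otherwise 307. They ran between 1721 (without AngioTag input 3) and 6523 (without AngioTag IP 1) for the AngioTag IP, otherwise 4300, and between 502 (without AngioTag input 1) and 1987 for the AngioTag minus FACS contrast, otherwise 1636. Ranges were 3321 to 5293 for FACS (5546), 1176 to 3146 between the IPs (3183), 5890 to 12369 for FACS total against AngioTag input (8923), 7333 to 9733 for FACS sorted against the AngioTag IP (9588) and 833 to 2127 for the AngioTag minus RiboTag contrast (1522). The RiboTag IP had 217 calls, against 1575 with DESeq2, 813 with all 18 libraries in 1 fit and 2574 with the block. The inputs had 307, against 1610 with DESeq2, 562 without the low-count filter, 6 with all 18 libraries and 180 with the block. Between the IPs 3183 became 6025 with all 18 libraries. The AngioTag minus RiboTag contrast had 1522, against 2520 with DESeq2 and 2979 with the block, and the AngioTag minus FACS contrast 1636, against 3078 with DESeq2. With upper-quartile scaling the median over all genes was -0.24 (AngioTag, otherwise -0.03), -0.31 (FACS, -0.11) and -0.16 (between the IPs, -0.01), and the higher and lower calls were 1461 and 3078 (AngioTag, otherwise 2170 and 2130), 2199 and 3657 (FACS, 2678 and 2868) and 1419 and 1989 (IPs, 1685 and 1498). The split of the AngioTag minus FACS contrast, 605 and 1031, was 409 and 1371 with median-of-ratios scaling and 407 and 1277 with mitochondrially encoded genes and zgc:158463 left out. Levels near 2 CPM, as for myf5 in the AngioTag IP, rest on few counts, 39 at the lowest.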
